A study of Mus musculus with 29 samples.

Results

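The genes described here are 34 genes of fatty acid uptake and mitochondrial fatty acid oxidation in the mouse heart, from the transporters at the cell surface to the flavoproteins that pass electrons to the respiratory chain. They were listed by symbol as members of the pathway, by a rule that uses no measured value. All 34 symbols were found among the 29955 genes of the expression table, and all 34 were among the 12759 genes that passed the filter on low values. Their mean over all libraries ran from 6.40 FPKM (fragments per unit of transcript length, scaled to library size) for Cpt1a to 10793 FPKM for Fabp3.

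RNA was sequenced from hearts of C57BL6 mice during induced heart failure (HF) and during recovery from it, and 24 libraries in 8 groups were compared. HF was induced from 3 months of age with 0.3 mg/ml of L-NAME (which blocks the making of nitric oxide) and 1% NaCl in the drinking water for 5 weeks, and with 0.7 mg/kg/day of angiotensin II from a 28-day osmotic pump. HF hearts were taken at week 3 (2 libraries) and week 5 (3 libraries). Recovery hearts came from mice left without the agents after week 5, at week 7 (2 libraries), week 9 (2 of 3 labelled samples), week 11 (3), week 13 (2) and week 19 (5). The control group was of untreated mice of the same age as the week 19 recovery mice (5 libraries). HF week 5 is set here against Control week 19, so these groups differ by 14 weeks of age as well as by the treatment, and the 2 cannot be told apart. The same gap lies between Recovery week 19 and HF week 5, and every other comparison made between different weeks has an age gap too. The mice are a wild-type strain with no transgene. The labels speak of the whole heart or ventricle and the study's methods of its apical part.

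The heart takes most of its energy from long-chain fatty acids. They are freed from circulating lipoproteins by lipoprotein lipase, taken up through CD36 and FATP1, carried by binding proteins, activated to acyl-CoA, and brought into mitochondria through the carnitine shuttle. In the matrix each turn of the β-oxidation spiral (dehydrogenation, hydration, a further dehydrogenation and thiolysis) shortens the chain and releases acetyl-CoA, and the electrons of the first step reach ubiquinone through the electron transfer flavoprotein. A shift from fatty acids towards glucose has long been described in the failing heart.

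Libraries of HF stood apart from the rest in ways that bear on the values below. The first HF week 3 library listed 12816 genes above 0, against 16339 to 18091 in the other 23, and correlated at 0.885 with the second. The first HF week 5 library correlated at 0.952 and 0.956 with the other 2, which correlated at 0.984 with each other. Depth is known only as a ratio, from the steps between low FPKM values, and ran from 0.728 to 1.39 of that of the first control library in the 23 libraries that showed steps. Myh6, the main cardiac myosin of the adult mouse, was listed at 0 in every library of weeks 5 and 19 and at 37546 FPKM or more in every other library. The summed FPKM of 10 cardiomyocyte markers was 26103, 47505 and 42140 in the HF week 5 libraries and 39859 to 48574 in the controls. Of these markers Pln, which encodes phospholamban, was called lower in HF, at 395, 1243 and 1079 FPKM against 1418 to 1566 FPKM. In HF week 5 library 1, Myl3 was at 3561 FPKM against 12487 to 15126 FPKM in the controls and Mybpc3 at 384 FPKM against 584 to 910 FPKM, while Tnnt2 was at 6741 to 8550 FPKM over HF week 5 and 8006 to 9465 FPKM in the controls.

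At week 5 of HF the transcripts of the enzymes of the β-oxidation spiral were lower than in controls. So were those of acyl-CoA synthetase and of 3 of the 4 genes of the carnitine shuttle. Of the 34 genes, 20 were lower and 0 were higher at a Benjamini-Hochberg adjusted p under 0.05 in limma. Over all genes tested, 12.4% were called lower and 11.6% higher. The median log2 fold change of the 34 was -0.66, against 0.04 over all genes tested. At an unadjusted p under 0.05, 25 of the 34 were lower and 0 were higher. For counts at an unadjusted p, here and below, no share of all genes is given, which limits their reading. In 18 of the 34 every HF library lay below every control library, which held for 14.7% of all genes. Fold changes are differences of mean log2(FPKM + 0.5), which understates the change of genes at low levels. These are bulk tissue values, in which fewer cardiomyocytes and less RNA per cardiomyocyte cannot be told apart, and the p-values measure the spread between libraries.

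**Figure D1:**
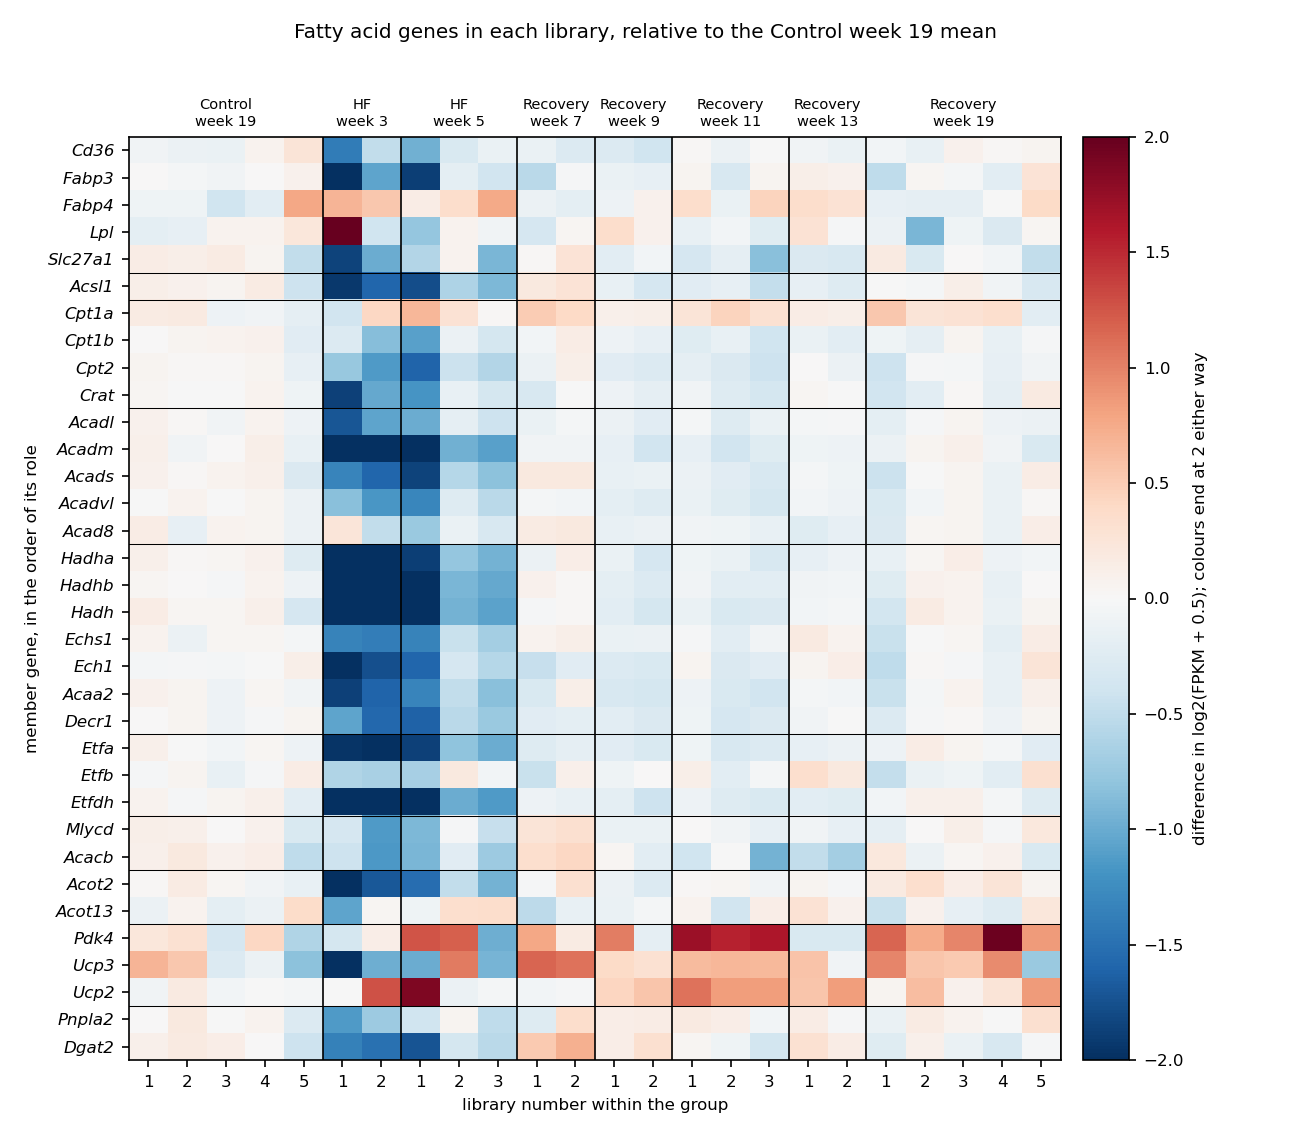
Each row is 1 of the 34 genes, in the order of its role with lines between roles, and each column is 1 of the 24 libraries. The colour is log2(FPKM + 0.5) minus the Control week 19 mean, from blue (lower) to red (higher). The HF columns are blue through the dehydrogenases (other than Acad8 in HF week 3 library 1), the rest of the spiral, Etfa and Etfdh, with the lightest blue in HF week 5 library 2, and the recovery columns are paler, with their strongest colours in Pdk4, Ucp3 and Ucp2.

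The 3 HF week 5 libraries fell in 1 order. Library 1 was the lowest and library 2 the highest in all 20 of the genes called. Across these 20 genes, library 1 held a median of 32.4% of the control mean, library 2 held 70.7% and library 3 held 57.4%. Counted over all 34 genes, 29 were below the control range in library 1, 20 in library 2 and 27 in library 3, against 33.1%, 24.5% and 27.4% of all genes tested. In the per-gene accounts that follow, values are listed in the order of the library number.

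Among the genes of uptake and intracellular binding, 0 of 5 passed the test at week 5 of HF, and their log2 fold changes ran from -0.82 to 0.42. Some were called under alternative settings, Fabp3 in 8 of 24, Cd36 in 3, Slc27a1 in 2, Fabp4 in 2 and Lpl in 0, with Fabp3 and Cd36 called when the HF week 3 libraries were left out. Fabp3, the fatty acid binding protein of muscle and heart and the most abundant of the 34, stood at 3357, 10776 and 9493 FPKM in HF week 5, 12528, 12017, 11868, 12511 and 13127 FPKM in control and 8718, 12690.2, 12123, 10714 and 14926 FPKM in Recovery week 19. All 3 HF libraries were below the control range, by far the most in library 1. The log2 fold change of Fabp3 was -0.82 ± 0.30 (SE), just outside the threshold (adjusted p = 0.0516), and it was 0.73 ± 0.30 in Recovery week 19 against HF (adjusted p = 0.0807).

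Cd36, the main long-chain fatty acid transporter of the heart, was at 149, 237 and 266 FPKM in HF week 5 and 277, 268, 265, 305 and 348 FPKM in control. Library 3 lay within the control range, and the log2 fold change of -0.46 ± 0.18 did not pass (adjusted p = 0.0639). Slc27a1, which encodes the transport protein FATP1, had a log2 fold change of -0.47 ± 0.23 (adjusted p = 0.137). Lpl, the lipase that frees fatty acids from lipoproteins, had one of -0.26 ± 0.40 (adjusted p = 0.676). Fabp4 is a binding protein of adipocytes and capillary endothelium, and went the other way, with 2075, 2386 and 3176 FPKM in HF week 5 and 1766, 1769, 1416, 1614 and 3202 FPKM in control. Library 5 alone set the upper end of the control range of Fabp4, and the log2 fold change of 0.42 ± 0.22 did not pass (adjusted p = 0.173).

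Acsl1, the acyl-CoA synthetase that activates long-chain fatty acids in the heart, stood at 33.6, 75.6 and 62.3 FPKM in HF week 5, 126, 123, 121, 130.1 and 87.0 FPKM in control and 115, 113, 126, 111 and 92.5 FPKM in Recovery week 19. Every HF library was below every control and recovery library. Acsl1 was 2.14-fold lower in HF (log2 -1.10 ± 0.19, adjusted p = 0.000667) and rose again in Recovery week 19 relative to HF (log2 1.03 ± 0.19, adjusted p = 0.00102).

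In the carnitine shuttle, 3 of 4 genes were lower at week 5 of HF. Cpt2, the carnitine palmitoyltransferase of the inner membrane, was at 37.9, 86.5 and 77.1 FPKM in HF, 120.5, 119, 118, 121 and 104 FPKM in control and 87.2, 114, 114, 104 and 110.4 FPKM in Recovery week 19. The HF libraries lay below both other groups, with log2 fold changes of -0.87 ± 0.18 against control (adjusted p = 0.00241) and 0.73 ± 0.18 for recovery against HF (adjusted p = 0.00755). Cpt1b, the muscle form of the outer membrane enzyme, was at 103, 203 and 171 FPKM in HF, 221, 229, 231, 233 and 188 FPKM in control and 208, 195, 228, 199 and 217 FPKM in recovery. Library 2 of HF reached into the control range, and the fall of Cpt1b was smaller, at -0.52 ± 0.17 (adjusted p = 0.0282). It was not called without HF library 1, when the log2 fold change was -0.24 (adjusted p = 0.291). In GENCODE, 2744 exonic bases of Cpt1b are shared on the same strand with a second gene model, and how the authors' counting split such fragments is not given in the sources used here. Crat, which moves acetyl groups between CoA and carnitine, stood at 65.6, 135 and 117 FPKM in HF, 152, 147, 148, 156 and 140.0 FPKM in control and 115, 129, 151, 131 and 169 FPKM in recovery. Its HF libraries were below the control range, library 2 by little, and the log2 fold change was -0.56 ± 0.20 (adjusted p = 0.0444), which was also lost without library 1. Neither Cpt1b (adjusted p = 0.0548) nor Crat (adjusted p = 0.106) passed in recovery against HF.

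Cpt1a, the liver form of the outer membrane enzyme, was expressed in these hearts at a small part of the Cpt1b level, with 8.9, 6.77 and 5.53 FPKM in HF week 5 and 6.15, 6.21, 5.07, 5.19 and 4.77 FPKM in control. Libraries 1 and 2 of HF were above the control range, and the log2 fold change of 0.32 ± 0.18 did not pass (adjusted p = 0.19). Taken as a ratio within each library, Cpt1b to Cpt1a in HF was 11.6, 30.0 and 30.9. In control it ran from 35.9 to 45.6, and no HF library reached that range. On the log2 scale the ratio averaged 4.37 ± 0.78 (SD, n = 3) in HF and 5.21 ± 0.15 (n = 5) in control. The difference of -0.84 had p = 0.0179 in a two-sided exact permutation test, the smallest these 56 arrangements allow, and 0.107 after Benjamini-Hochberg adjustment over 6 ratio tests. Without HF library 1 it was -0.39 (exact permutation, adjusted p = 0.238). Recovery week 19 averaged 4.89 ± 0.32 (n = 5), which differed from HF by 0.52 (exact p = 0.268, adjusted 0.536) and from control by -0.32 (exact p = 0.0794, adjusted 0.238). Without Recovery week 19 library 5, the highest of its group, the latter difference was -0.45 (exact permutation, adjusted p = 0.0476).

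**Figure D2:**
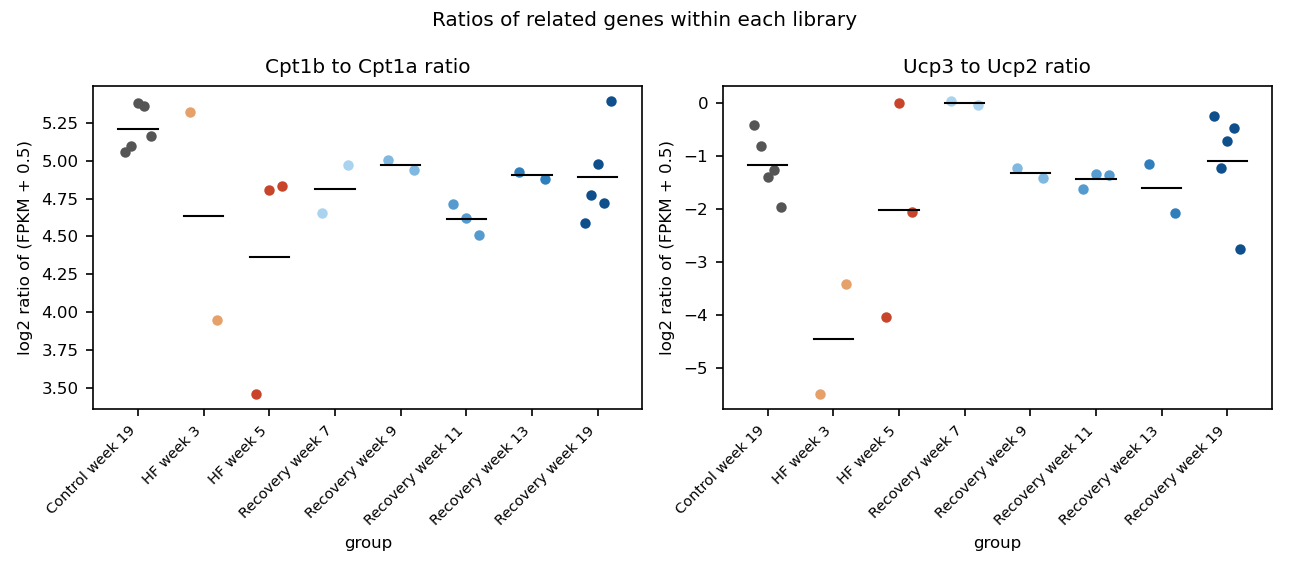
Points are libraries by group and bars are group means, of the log2 ratio of (FPKM + 0.5) for Cpt1b to Cpt1a on the left and Ucp3 to Ucp2 on the right. The 3 HF week 5 libraries lie below all 5 controls on the left, and on the right HF week 5, Recovery week 19 and the controls overlap, with HF week 3 below and Recovery week 7 above every control.

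The acyl-CoA dehydrogenases carry out the first step of each turn, for chains of different lengths. Acadm, the medium-chain enzyme, had the lowest log2 fold change of the 34 genes in HF, close to that of Etfdh, which was the lowest without HF library 1. It stood at 109, 293 and 269 FPKM in HF week 5, 609, 539.6, 571, 618 and 517 FPKM in control and 523, 592, 609, 540.2 and 460.1 FPKM in Recovery week 19. The highest HF library was well below the lowest control and recovery libraries. Acadm was 2.77-fold lower in HF (log2 -1.47 ± 0.21, adjusted p = 0.000152) and 2.64-fold higher in recovery than in HF (log2 1.40 ± 0.21, adjusted p = 0.000206).

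Acads, the short-chain enzyme, was at 38.5, 94.7 and 78.7 FPKM in HF, 148, 143, 148, 151 and 114 FPKM in control and 103, 139, 146, 128 and 156 FPKM in recovery. HF lay below both other groups, and the log2 fold changes were -1.08 ± 0.20 in HF (adjusted p = 0.000949) and 1.01 ± 0.20 in recovery (adjusted p = 0.00156). Acadvl, the very-long-chain enzyme of the inner membrane, was at 252, 526 and 429 FPKM in HF, 624, 659, 619.9, 653 and 579 FPKM in control and 506, 605, 649, 572 and 636 FPKM in recovery. HF lay below every control, with library 2 of HF above 1 recovery library, and the log2 fold changes were -0.70 ± 0.16 (adjusted p = 0.00496) and 0.62 ± 0.16 (adjusted p = 0.0108). Acadvl shares 976 exonic bases with Dvl2 on the opposite strand in GENCODE, and strand use in the counting is not given in the sources used here.

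Acadl, the long-chain enzyme, changed less, with 221, 389.6 and 329 FPKM in HF, 464, 447, 417, 463 and 408 FPKM in control and 385, 430.2, 457, 412 and 405 FPKM in recovery. HF was again below every control library, and the log2 fold changes of -0.53 ± 0.15 (adjusted p = 0.0178) and 0.45 ± 0.15 (adjusted p = 0.0372) passed. Acad8 acts on a breakdown product of valine and not on fatty acids, and it was the one dehydrogenase of the 5 that did not pass, at -0.40 ± 0.15 in HF (adjusted p = 0.0562). Acadm and Acadl act on overlapping chain lengths, and their log2 fold changes stood at -1.47 and -0.53, whose difference was not tested.

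All 7 genes of the rest of the spiral fell in HF week 5 relative to control and rose in Recovery week 19 relative to HF. Their log2 fold changes ran from -1.42 to -0.82 in HF and from 0.72 to 1.37 in recovery. Hadhb and Hadha encode the subunits of the mitochondrial trifunctional protein, which carries out the later steps for long chains. Hadhb stood at 195, 516 and 475 FPKM in HF, 1000.3, 980.3, 952, 1017 and 907 FPKM in control and 821, 1030.1, 1015, 874 and 979.5 FPKM in recovery. Hadha stood at 96.2, 209 and 185 FPKM in HF, 382, 363, 369, 379.9 and 299.8 FPKM in control and 321, 368, 391, 334 and 345 FPKM in recovery. For both, every HF library was below every control and recovery library. Hadhb was 2.67-fold lower in HF (log2 -1.42 ± 0.21, adjusted p = 0.000165) and Hadha 2.3-fold lower (log2 -1.20 ± 0.18, adjusted p = 0.000185). In recovery against HF, Hadhb rose by 1.37 ± 0.21 (adjusted p = 0.000202) and Hadha by 1.18 ± 0.18 (adjusted p = 0.000216) on the log2 scale.

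The subunit genes lie head to head on chromosome 5. RefSeq promoter windows (250 bases before to 50 after the start site, build GRCm38.p6) were found for 26 of the 34 genes. The authors' FPKM were made on an older build, MGSCv37, so the windows serve for sequence only. The windows of Hadha (chr5:30154931-30155230, minus strand) and Hadhb (chr5:30155003-30155302, plus strand) share 228 bases, at chr5:30155003-30155230, between divergent start sites. The Hadhb window is printed 5′ to 3′ with the bases it shares with Hadha in capitals, because both genes fell in HF and rose in recovery.
Hadhb: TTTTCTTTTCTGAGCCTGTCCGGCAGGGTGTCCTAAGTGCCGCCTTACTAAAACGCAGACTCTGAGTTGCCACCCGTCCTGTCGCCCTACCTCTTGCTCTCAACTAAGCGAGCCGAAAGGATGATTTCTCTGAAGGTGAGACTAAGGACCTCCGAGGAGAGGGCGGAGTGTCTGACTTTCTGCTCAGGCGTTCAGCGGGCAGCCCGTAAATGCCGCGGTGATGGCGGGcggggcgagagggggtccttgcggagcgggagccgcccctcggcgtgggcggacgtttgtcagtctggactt

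Short motifs of factors known to act on genes of this pathway were searched on both strands of the 26 windows. The nuclear receptor motif AAGGTCA was present in 2 of 26 (Acadm and Acacb) and in 4.72% of all 32851 mouse windows. The longer form TNAAGGTCA was in 0 of 26 and in 1.28% of all windows, and the direct repeat AGGTCANAGGTCA in 0 of 26 and 0.0396% of all. The shorter motif is part of the longer form. The NRF1 motif GCGCATGCGC was in 1 of 26, Etfdh, and in 0.971% of all windows. A match says only that the letters are there. The 3 windows with a match are printed 5′ to 3′ with the match in capitals. Acadm (chr3:153944594-153944893, minus strand) and Acacb (chr5:114165268-114165567, plus strand) hold the receptor motif as its reverse complement. In Acadm it begins 249 bases before the start, and in Acacb it lies after the start, at bases 294 to 300 of the window. Etfdh (chr3:79628718-79629017, minus strand) holds the palindromic NRF1 motif 128 bases before its start.
Acadm: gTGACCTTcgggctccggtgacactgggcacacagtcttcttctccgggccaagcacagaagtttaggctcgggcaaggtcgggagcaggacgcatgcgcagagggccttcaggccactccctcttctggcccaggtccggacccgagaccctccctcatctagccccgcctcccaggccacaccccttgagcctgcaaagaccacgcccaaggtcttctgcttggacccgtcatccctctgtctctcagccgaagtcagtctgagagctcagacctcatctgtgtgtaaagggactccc
Acacb: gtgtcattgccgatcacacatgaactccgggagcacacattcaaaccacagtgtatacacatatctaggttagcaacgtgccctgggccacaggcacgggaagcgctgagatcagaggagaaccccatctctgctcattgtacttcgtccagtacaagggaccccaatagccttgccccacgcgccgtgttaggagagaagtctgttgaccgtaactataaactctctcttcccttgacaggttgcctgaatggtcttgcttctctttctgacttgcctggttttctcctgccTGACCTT
Etfdh: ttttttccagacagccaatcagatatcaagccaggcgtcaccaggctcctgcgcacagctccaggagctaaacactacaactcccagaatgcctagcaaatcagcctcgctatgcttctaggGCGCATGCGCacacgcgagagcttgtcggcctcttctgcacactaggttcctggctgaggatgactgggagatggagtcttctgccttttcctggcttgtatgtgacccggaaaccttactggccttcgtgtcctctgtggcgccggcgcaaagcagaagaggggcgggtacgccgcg

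Hadh, the 3-hydroxyacyl-CoA dehydrogenase of medium and short chains, stood at 95.5, 198 and 179.9 FPKM in HF, 422, 392, 391, 409 and 300.5 FPKM in control and 294, 428, 399, 348 and 396 FPKM in recovery. The highest HF value was below every value of the other groups, and the log2 fold changes were -1.34 ± 0.22 (adjusted p = 0.000391) in HF and 1.30 ± 0.22 (adjusted p = 0.00049) in recovery. Echs1, the enoyl-CoA hydratase of short chains, was at 99.2, 183 and 156 FPKM in HF, 264, 232, 256, 257 and 243 FPKM in control and 183, 249, 256, 219 and 277 FPKM in recovery. Library 1 of recovery lay within reach of library 2 of HF, both near 183 FPKM, and the log2 fold changes were -0.82 ± 0.15 (adjusted p = 0.00108) and 0.72 ± 0.15 (adjusted p = 0.0025).

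Acaa2, the thiolase that closes the turn, was at 377, 668 and 528 FPKM in HF, 995, 982, 873, 965 and 899.5 FPKM in control and 694, 920.0, 986, 852 and 1014 FPKM in recovery. HF lay below both groups, with a log2 fold change of -0.88 ± 0.16 (adjusted p = 0.00092) and a rise of 0.79 ± 0.16 in recovery (adjusted p = 0.00193). Decr1 and Ech1 are auxiliary enzymes that deal with the double bonds of unsaturated fatty acids. Decr1 was at 52.5, 112 and 96.7 FPKM in HF, 164, 168, 151, 159.9 and 169 FPKM in control and 134, 159, 165, 151 and 168 FPKM in recovery. It did not overlap between HF and the other groups, and moved by -0.97 ± 0.17 (adjusted p = 0.000732) and 0.90 ± 0.17 (adjusted p = 0.00118) on the log2 scale. Ech1 was at 821, 1951 and 1663 FPKM in HF, 2421, 2422, 2398, 2451 and 2695 FPKM in control and 1740.1, 2511, 2439, 2229 and 2952 FPKM in recovery. HF libraries 2 and 3 lay below the controls but around the lowest recovery library, and the log2 fold changes were -0.84 ± 0.23 (adjusted p = 0.0122) and 0.75 ± 0.23 (adjusted p = 0.021).

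**Figure D3:**
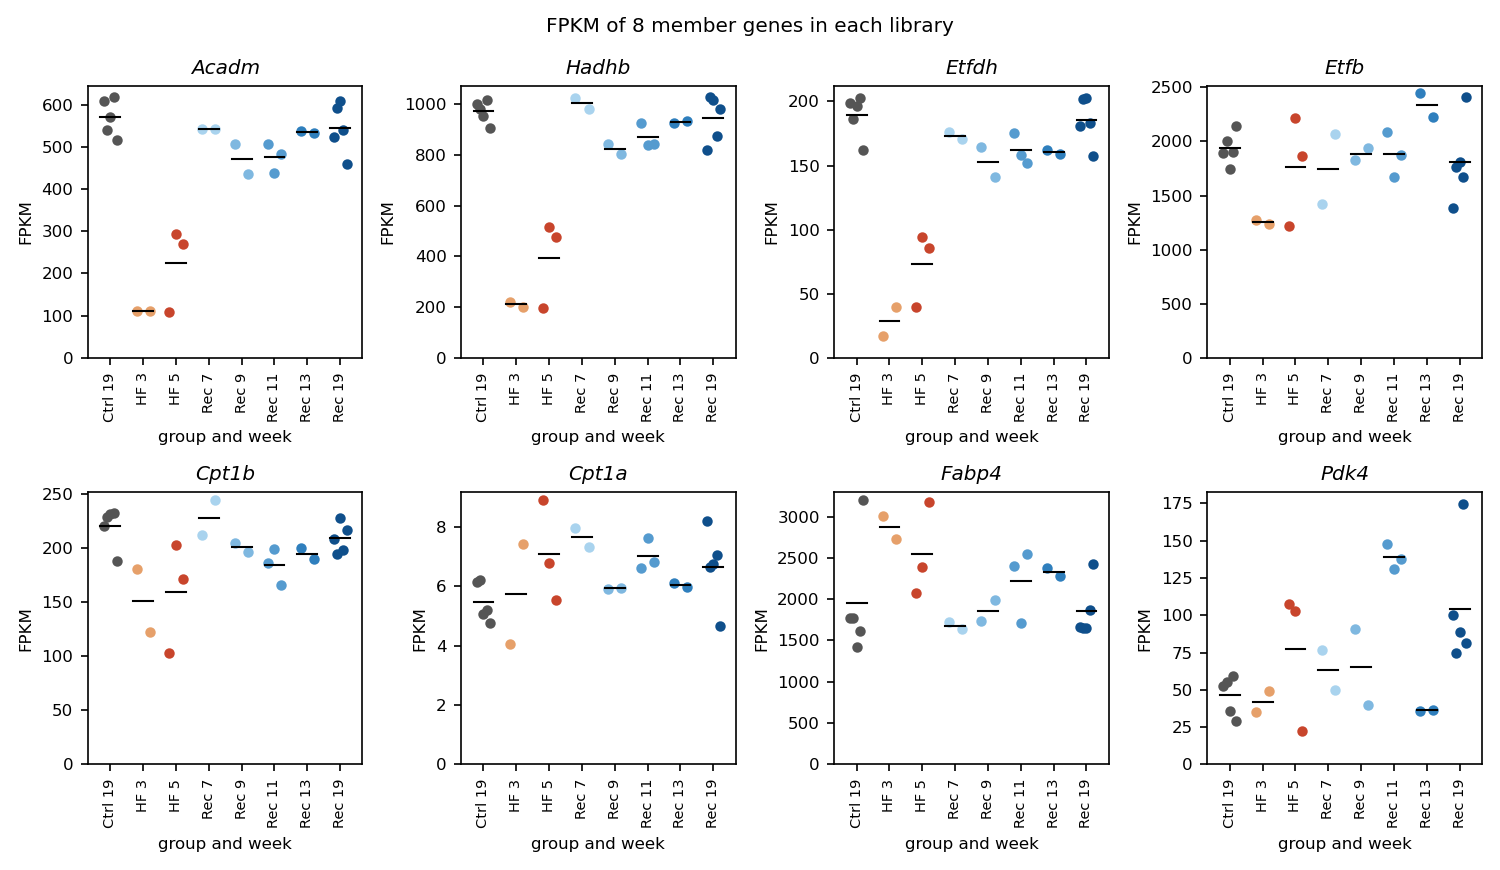
FPKM of 8 of the genes in each library (points) with the group mean (bar), on axes from 0, for Control week 19 (Ctrl 19), HF weeks 3 and 5 and Recovery weeks 7 to 19. Acadm, Hadhb and Etfdh in HF lie below every control and recovery library, while Etfb, Cpt1a, Fabp4 and Pdk4 in HF week 5 overlap the controls.

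Of the genes of the electron transfer flavoprotein, 2 of 3 were lower at week 5 of HF. Etfa and Etfb encode its subunits, and Etfdh the oxidoreductase that passes its electrons to ubiquinone. Etfa stood at 108, 228 and 199 FPKM in HF, 429, 398, 385, 411 and 370.1 FPKM in control and 372, 439.6, 413, 386 and 339 FPKM in recovery. Etfdh stood at 39.9, 94.1 and 85.8 FPKM in HF, 199, 186, 196, 203 and 162 FPKM in control and 181, 202, 203, 183 and 157 FPKM in recovery. Neither gene overlapped between HF and the other groups. Etfa was 2.34-fold lower in HF (log2 -1.23 ± 0.17) and had the smallest adjusted p of the 34 genes (0.000103), and Etfdh was 2.74-fold lower (log2 -1.45 ± 0.23, adjusted p = 0.00032). In recovery against HF they rose by 1.19 ± 0.17 (adjusted p = 0.000129) and 1.42 ± 0.23 (adjusted p = 0.000388).

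Etfb was at 1222, 2213 and 1864 FPKM in HF, 1896, 2001, 1747, 1898 and 2145 FPKM in control and 1384, 1763, 1812, 1672 and 2411 FPKM in recovery. Only library 1 of HF was below the control range and library 2 was above it, and the log2 fold change of -0.17 ± 0.19 did not pass (adjusted p = 0.539). Whether Etfa and Etfb differed in their change was not tested. In GENCODE 617 exonic bases of Etfb are shared with another gene model on the same strand.

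Malonyl-CoA, an inhibitor of the outer membrane carnitine palmitoyltransferases, is made by the product of Acacb and broken down by that of Mlycd. Acacb stood at 14.7, 24.1 and 16.8 FPKM in HF, 30.2, 32.2, 30.0, 30.9 and 19.6 FPKM in control and 32.6, 26.0, 28.8, 29.9 and 22.7 FPKM in recovery. HF library 2 reached above control library 5 and Recovery week 19 library 5, and the log2 fold changes of -0.62 ± 0.21 (adjusted p = 0.0392) and 0.60 ± 0.21 (adjusted p = 0.0441) passed. These calls of Acacb held in 14 and 11 of 24 alternatives, and without HF library 1 both were lost, at -0.48 (limma, adjusted p = 0.218) and 0.46 (adjusted p = 0.227). Mlycd was at 61.2, 113 and 83.8 FPKM in HF, 125, 123, 116, 122 and 92.7 FPKM in control and 102, 116, 124, 114 and 133 FPKM in recovery. HF library 2 lay within both other ranges, and the log2 fold change passed in recovery against HF (0.49 ± 0.17, adjusted p = 0.0455) and not in HF against control (-0.46 ± 0.17, adjusted p = 0.0582). The call of Mlycd held in 11 of 24 alternatives and was lost without HF library 1, at 0.26 (limma, adjusted p = 0.343).

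Of the thioesterases, which release free fatty acids from acyl-CoA, the mitochondrial Acot2 stood at 10.2, 21.5 and 15.6 FPKM in HF, 30.7, 34.0, 31.2, 28.7 and 27.5 FPKM in control and 34.5, 38.4, 33.3, 36.3 and 31.7 FPKM in recovery. HF lay below both groups, with log2 fold changes of -0.98 ± 0.18 (adjusted p = 0.000858) and 1.18 ± 0.18 (adjusted p = 0.000214). Acot2 has a near-identical neighbour, Acot1, so its values are uncertain where fragments fit both. Acot13 was at 526, 704 and 714 FPKM in HF and 514, 584, 486, 514 and 718 FPKM in control, which overlap, and its log2 fold change was 0.20 ± 0.21 (adjusted p = 0.527).

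Genes of the fuel switch and of uncoupling varied widely between libraries of 1 group, and none of the 3 passed in any of the comparisons among HF week 5, Recovery week 19 and control with all libraries weighted equally in the fit. Pdk4, the kinase that shuts pyruvate dehydrogenase when fatty acids are burnt, stood at 107, 103 and 22.5 FPKM in HF, 52.3, 55.0, 35.5, 59.6 and 29.2 FPKM in control and 100.4, 75.0, 88.7, 175 and 81.3 FPKM in recovery. HF libraries 1 and 2 were above and library 3 below the control range, and the log2 fold change in HF was 0.49 ± 0.41 (adjusted p = 0.409). Without library 3 Pdk4 was called higher in HF (1.23, limma, adjusted p = 0.0145), and with library 3 alone its log2 fold change was -0.98 and not called. All 5 recovery libraries were above all 5 controls. Of the 34 genes, 1 was separated in this way, against 0.925% of the genes in the fit. Recovery week 19 against control gave Pdk4 a log2 fold change of 1.14 ± 0.35, with an unadjusted p of 0.00432 and an adjusted p of 1 in limma.

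Ucp3 and Ucp2 encode uncoupling proteins of the inner membrane, Ucp3 mainly in muscle and Ucp2 in many cell types. Ucp3 was at 4.57, 20.3 and 4.82 FPKM in HF, 15.7, 14.1, 7.85, 8.83 and 5.22 FPKM in control and 19.3, 14.3, 14.1, 19.1 and 5.57 FPKM in recovery, with overlap throughout. Ucp2 was at 81.7, 20.2 and 21.4 FPKM in HF and 21.0, 25.0, 21.3, 21.9 and 21.6 FPKM in control, with library 1 of HF alone above the others. The log2 ratio of Ucp3 to Ucp2 averaged -2.02 ± 2.01 (SD, n = 3) in HF, -1.16 ± 0.59 (n = 5) in control and -1.08 ± 1.00 (n = 5) in recovery, and the 3 exact permutation p ran from 0.411 to 0.873. Ucp2 shares 305 exonic bases with Dnajb13 on the opposite strand.

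In triglyceride turnover, Dgat2, which completes triglyceride synthesis, was at 54.0, 141 and 124 FPKM in HF, 193, 204, 198, 182 and 136 FPKM in control and 153, 193, 165, 145 and 179 FPKM in recovery. HF library 2 lay just above the lowest control library, and the log2 fold changes of -0.88 ± 0.22 (adjusted p = 0.00738) and 0.75 ± 0.22 (adjusted p = 0.0175) passed. Pnpla2, the lipase that starts triglyceride breakdown, had a log2 fold change of -0.28 ± 0.16 in HF (adjusted p = 0.199) and 0.36 ± 0.16 in recovery against HF (adjusted p = 0.0972).

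Acsl1, Cpt2, the dehydrogenases other than Acad8, the rest of the spiral, Etfa and Etfdh rose in recovery relative to HF. At week 19, 19 of the 34 genes were higher than in HF week 5 and 0 were lower, against 12.3% higher and 12.0% lower over all genes. At an unadjusted p under 0.05, 25 were higher and 0 lower. The median log2 fold change was 0.69, against -0.04 over all genes. In 13 of the 34 every recovery library was above every HF library, which held for 14.1% of all genes. The comparison shares its HF libraries with that of HF against control, so the 2 are not independent. Tested markers of other cells were lower at week 19 than in HF for 3 of 3 atrial, 4 of 4 adipocyte, 4 of 10 endothelial and 3 of 8 fibroblast genes. So were 1 of 2 brown adipocyte and 1 of 3 skeletal muscle genes, and 0 of 8 macrophage genes were called. Of 10 cardiomyocyte genes 1 was higher. The part of these markers in the rise was not tested.

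Against the controls of the same week, Recovery week 19 gave 0 genes called higher and 0 called lower of the 34 in limma. At an unadjusted p under 0.05 there was 1, Pdk4. Over all genes tested 0.0235% were called higher and 0.0% lower. The log2 fold changes of the 34 ran from -0.27 to 1.14 with a median of -0.06. The 20 genes that were lower in HF stood at 90.9% (Cpt2) to 115% (Acot2) of the control mean, with a median of 95.5%. For the genes that had moved most the fold changes were -0.07 ± 0.18 for Acadm, -0.05 ± 0.18 for Hadhb and -0.03 ± 0.20 for Etfdh, on the log2 scale.

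**Figure D4:**
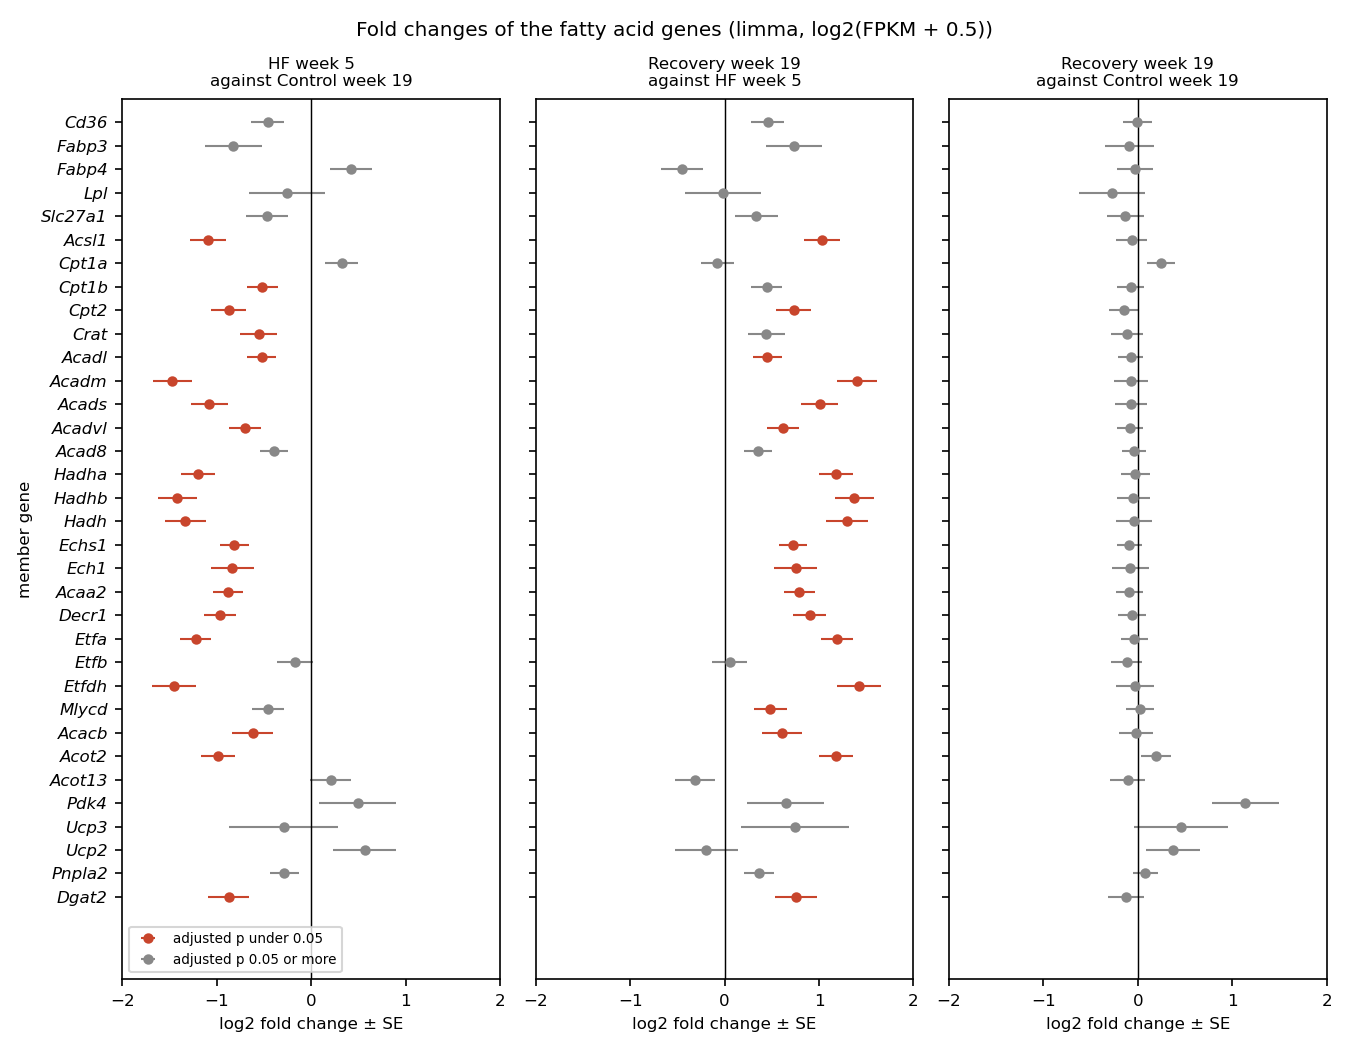
Points are log2 fold changes and lines 1 SE, for the 34 genes in 3 comparisons, with an adjusted p under 0.05 in red. The left panel holds 20 red points below 0, the middle panel 19 above 0 and the right panel none.

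At week 3, while the agents were being given, 27 of the 34 genes were lower than in Control week 19 and 1, Fabp4, was higher. All genes gave 27.6% lower and 23.1% higher in this comparison, and the median log2 fold change was -1.37 for the 34 and -0.05 for all genes. With array weights fewer of the 34 were called lower, and over all genes 3.86% were lower and 1.73% higher. The 2 HF week 3 libraries held 111 and 112 FPKM of Acadm, 221 and 202 FPKM of Hadhb and 17.0 and 39.7 FPKM of Etfdh, all far below the control ranges given above. Acadm had a log2 fold change of -2.35 ± 0.24 (adjusted p = 5.79e-07) and Etfdh of -2.83 ± 0.27 (adjusted p = 2.32e-07). Lpl was at 4281 and 539 FPKM and Ucp3 at 0 and 4.61 FPKM in the same 2 libraries, so that library 1 was high for Lpl and was listed at 0 for Ucp3. Fabp4 was called with a log2 fold change of 0.62 ± 0.25 (adjusted p = 0.0484), a call that several alternative settings lost. In these 2 libraries the atrial marker sum described below was 7737 to 14050 FPKM, the adipocyte sum 112 to 246 FPKM and the fibroblast sum 740 to 747 FPKM. Among tested markers at week 3, 6 of 8 fibroblast, 6 of 10 endothelial, 4 of 8 macrophage and 2 of 3 skeletal muscle genes were higher than in control. In the other direction, 1 endothelial and 1 macrophage gene were lower. Of 10 cardiomyocyte genes, 4 were lower, with Pln at 308 and 510 FPKM, and 1, Myh6, was higher. The part of these markers in the fall was not tested.

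By week 7, after 2 weeks without the agents, Acadm and Etfdh were within the control range. Etfa (332 and 352 FPKM), Decr1 (139 and 142 FPKM) and Ech1 (1796 and 2114 FPKM) were below it in both libraries. In libraries 1 and 2, 10 and 4 of the 34 were below the control range, against 22.7% and 17.5% of all genes. Above it were 10 and 16, against 19.6% and 20.6%. Acadm was at 542 and 542 FPKM, Hadhb at 1026 and 981 FPKM and Etfdh at 176 and 171 FPKM in the 2 libraries. Against HF week 5, 18 of the 34 were higher and 0 were lower, with 8.05% higher and 6.75% lower over all genes, and with 21 higher and 1 lower at an unadjusted p under 0.05. Acadm rose by 1.40 ± 0.26 (adjusted p = 0.00251) and Etfdh by 1.33 ± 0.29 (adjusted p = 0.00601) on the log2 scale. In a fit of these 2 groups alone, 0 were called. Tested markers lower at week 7 than in HF week 5, in the fit of all libraries, were 3 of 3 atrial, 4 of 4 adipocyte and 5 of 10 endothelial genes. So were 3 of 8 fibroblast, 3 of 8 macrophage, 1 of 2 brown adipocyte and 1 of 3 skeletal muscle genes. Of 10 cardiomyocyte genes 1, Myh6, was higher. The part of these markers in the rise was not tested.

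Against Control week 19, each of Recovery weeks 7, 9, 11 and 13 gave 0 of the 34 genes called in either direction in the fit of all 24 libraries with equal weights. At week 7 0.047% of all genes were called higher and 0.0% lower, and of the 34, 2 were higher at an unadjusted p under 0.05 (Cpt1a and Dgat2). At week 9 the shares of all genes were 0.0549% higher and 0.0% lower, with 0 of the 34 at an unadjusted p under 0.05. In libraries 1 and 2 of week 9, 13 and 17 of the 34 were below the control range, against 15.4% and 19.7% of all genes. Above it were 3 and 2, against 13.1% and 20.1%. At week 11 the shares called were 0.141% higher and 0.00784% lower, with 2 higher (Pdk4 and Ucp2) and 1 lower (Acacb) of the 34 before adjustment. At week 13 they were 0.0549% and 0.0235%, with 1 lower (Acacb) of the 34 before adjustment. Array weights called 2 higher and 5 lower of the 34 at week 11, with 6.94% of all genes higher and 7.09% lower, and 2 higher and 4 lower at week 13, with 14.2% and 15.1%. Fits of only the groups compared called 2 higher at week 11 and 1 at week 13, and leaving out HF week 5 library 3 gave 1 higher at week 11. The macrophage marker sum was 446 to 612 FPKM at week 11 and 527 to 673 FPKM at week 13 against 256 to 389 FPKM in the controls. The fibroblast sum was 411 to 679 FPKM at week 11 and 389 to 504 FPKM at week 13 against 253 to 360 FPKM. The part of these markers in the values of the 34 genes was not tested.

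The course of single genes still differed. The 20 genes lower in HF week 5 had medians of 99.9% of the control mean at week 7, 84.8% at week 9, 85.2% at week 11 and 96.0% at week 13. Dgat2 was at 259 and 295 FPKM at week 7, above the highest control, with a log2 fold change of 0.61 ± 0.25 (unadjusted p = 0.0247). Pdk4 stood at 148, 131 and 138 FPKM at week 11, more than in any control, and at 36.1 and 36.2 FPKM at week 13, within the control range. Its log2 fold change at week 11 was 1.62 ± 0.41 (adjusted p = 0.129). Acacb was at 21.2, 28.0 and 14.4 FPKM at week 11 and 20.0 and 17.3 FPKM at week 13, where its log2 fold change was -0.59 ± 0.24 (adjusted p = 0.415). Recovery weeks 7 to 13 and HF week 3 hold Myh6 values where weeks 5 and 19 are listed at 0, and whether the weeks were processed alike is not given in the sources used here.

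Markers of other cells moved with the HF libraries. The summed FPKM of 4 atrial markers (Myl7, Sln, Myl4 and Bmp10) was 39730 in HF week 5 library 1, 415 in library 2 and 15.5 in library 3, against 4.89 to 8.52 in the controls and 3.04 to 5.91 in Recovery week 19. The sum of 6 adipocyte markers was 261, 241 and 1.98 in the HF week 5 libraries, against 0.146 to 0.403 in the controls, with Lep at 0 in HF libraries 1 and 3 and Bmp10 at 0 in library 3. Among tested markers, 3 of 3 atrial, 4 of 4 adipocyte, 6 of 8 fibroblast, 5 of 10 endothelial, 1 of 2 brown adipocyte, 1 of 3 skeletal muscle and 0 of 8 macrophage genes were higher in HF, and 1 of 10 cardiomyocyte genes was lower. The brown adipocyte marker called was Ucp1, at 13.03, 1.68 and 0.292 FPKM in HF week 5 and listed at 0 in every control, while Cidea was at 40.3, 48.6 and 36.4 FPKM in HF and 32.6 to 40.0 FPKM in control. The skeletal muscle sum was 16.0, 6.74 and 7.68 FPKM in HF and 4.41 to 7.15 FPKM in control. The endothelial sum was 620, 422 and 539 FPKM in HF week 5 libraries 1, 2 and 3 and 287 to 359 FPKM in control. The fibroblast sum was 707, 357 and 609 FPKM in these libraries and 253 to 360 FPKM in control. In HF week 5 library 3, Myl7 was at 6.16 FPKM, Cfd at 1.28 FPKM and Adipoq at 0.0516 FPKM, and the median log2 difference of the 34 fatty acid genes from the control mean was -0.58.

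With library 3 as the only HF week 5 library, its spread taken from the other groups, 12 of the 34 genes were lower than control, all of them among the 20: Acsl1, Acadm, Acads, Hadha, Hadhb, Hadh, Echs1, Acaa2, Decr1, Etfa, Etfdh and Acot2. Over all genes, 2.19% were lower in that fit. With library 1 left out, 14 of the 34 were lower, all among the 20, and 6.42% of all genes, while Cpt1b, Crat, Acadl, Ech1, Acacb and Dgat2 were no longer called. Recovery week 19 against HF, without library 1, gave 12 genes higher, all among the 19, and 6.86% of all genes, while Cpt2, Acadl, Acadvl, Ech1, Mlycd, Acacb and Dgat2 were no longer called. With library 3 alone it also gave 12, of which 11 were among the 19, and 2.36% of all genes. Echs1 was then lost and Pdk4 was gained, at a log2 fold change of 2.11, and Pdk4 was gained with array weights as well (1.56, limma, adjusted p = 0.0068). Weights also gained Ucp3, Slc27a1 and Pnpla2 as higher and Fabp4 and Acot13 as lower in that comparison, where 18.0% of all genes were then higher and 19.04% lower. The part of the fibroblast and endothelial markers in the fall was not tested.

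**Figure D5:**
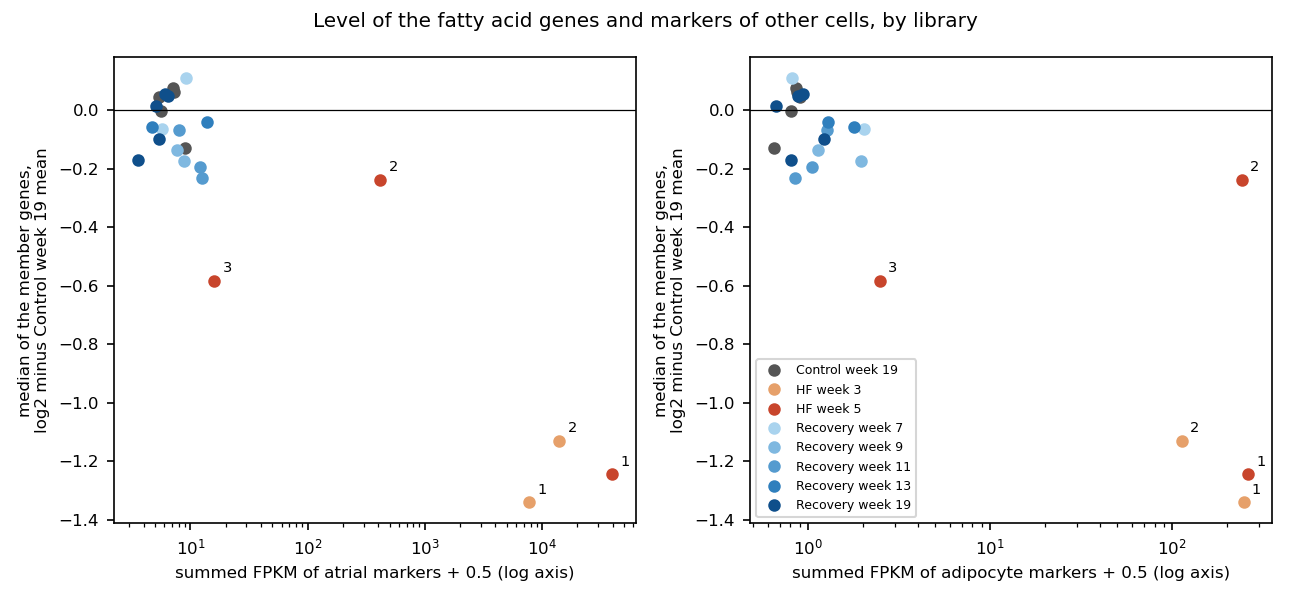
Each point is 1 of the 24 libraries, with the summed FPKM of atrial markers (left) or adipocyte markers (right) plus 0.5 on a log axis, against the median over the 34 genes of log2(FPKM + 0.5) minus the control mean. HF libraries are numbered. HF week 5 library 3 lies at -0.58 with marker sums above the control range but far below those of the other HF libraries, while library 2 lies at -0.24 with higher sums.

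Other genes of the pathway, from a list of 50 of which 46 were tested, were mostly lower where they passed. At week 5 of HF 23 were lower and 2 higher than in control, with a median log2 fold change of -0.46. Over all genes 12.4% were lower and 11.6% higher. The largest falls were those of Ppara, the nuclear receptor that drives transcription of this pathway (-1.48 ± 0.19, adjusted p = 7.76e-05), Plin5, a lipid droplet protein (-1.31 ± 0.27, adjusted p = 0.00235), Slc25a20, the carnitine-acylcarnitine carrier between the outer and inner enzymes (-1.24 ± 0.19, adjusted p = 0.000185), and Acad11, a further acyl-CoA dehydrogenase (-1.23 ± 0.15, adjusted p = 4.25e-05). Ppara was at 2.16 ± 0.48 FPKM (SD, n = 3) in HF, 6.94 ± 1.46 FPKM (n = 5) in control and 6.20 ± 0.95 FPKM (n = 5) in Recovery week 19. The 2 that rose were Fabp5, a binding protein of several cell types (1.01 ± 0.26, adjusted p = 0.00828), and Pdk3, a pyruvate dehydrogenase kinase (1.31 ± 0.39, adjusted p = 0.0201). In Recovery week 19 against HF 23 of the 46 were higher and 3 lower, with 12.3% higher and 12.0% lower over all genes. Against control 0 of the 46 were called in Recovery week 19.

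Genes of other metabolic lists were also called lower. Against the 12.4% of all genes called lower and 11.6% called higher, of 18 glycolysis genes tested, 10 were lower and 0 higher in HF week 5 than in control, with a median log2 fold change of -0.38. Of 19 genes of mitochondrial import, chaperones and other mitochondrial proteins, 9 were lower and 0 higher, with a median of -0.42. Gapdh and Eno1 were among the 18 at control means of 1.31 and 2.83 FPKM, and Aldoa was listed at 0 in every control and not tested, which are low values for genes that most cells use. No difference between these lists and the 34 fatty acid genes was tested. In Recovery week 19 against HF, 8 glycolysis genes and 8 of the mitochondrial list were higher, against 12.3% of all genes. In Recovery week 19 against control 0 of either list were called.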

How the data were processed

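Values for mouse hearts came from RNA sequencing, and 8 of the 9 labelled groups were used. The authors aligned reads with TopHat2 to mouse build MGSCv37 and deposited FPKM per library from Cuffdiff; annotation, strand use and scaling between libraries are not given in the sources used here, and any difference from those steps remains in the data. The week named in each column gave its group, and libraries are numbered within a group. Of the per-sample columns, 5 were not used: their names point to the week 5 controls, of which only 4 are labelled, so at least 1 could not be placed, and Control week 19 was the control. Recovery week 9 has 2 columns for 3 labelled samples, and both were used. Comparisons with Control week 5 were therefore not made.

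The 12759 genes whose mean reached 0.5 FPKM were fitted as log2(FPKM + 0.5) in limma 3.58.1 (R 4.3.3), with a mean per group over 24 libraries, 16 residual degrees of freedom and eBayes with a trend. Tests were two-sided with Benjamini-Hochberg adjustment over all genes tested, and a gene was called at an adjusted p under 0.05. In simulated data each gene kept its residual spread, equal in every library, and changes were placed in HF week 5 in genes not at low levels. On these data the fit recovered 80% of 100 genes changed by 1 and 94% of 100 changed by 2 on the log2 scale. The real HF week 5 libraries were not equal in spread, with array weights of 0.218, 0.881 and 1.95. The simulation therefore cannot speak to calls that rest on HF library 1. Ratios were compared by exact permutation. Labels of samples give no separate animal for each column, so p-values may measure technical spread. The absolute depth is unknown.

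The 34 members, the lists and the tests were chosen with earlier results of these data known. Values in every library are given for all members called in a comparison among HF week 5, Recovery week 19 and control or over 1.5-fold apart in one, and of the others Cd36, Fabp4, Cpt1a, Etfb, Acot13 and Ucp2 were given so after their values were seen, and the rest by their fold changes; of the other pathway genes up to 4 in each direction are named by size. Alternatives were other pseudocounts and filters, fewer groups in the fit, other scalings, array weights, leaving out libraries, and, chosen after seeing the data, HF week 5 library 3 alone. Python 3.11.15 with pandas 2.3.3, numpy 2.4.6 and matplotlib 3.10.9 handled tables and figures.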

Additional observations from a re-analysis of the deposited data

Results flagged for a closer look

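In groups of 5 libraries, the gap between an extreme library and its neighbour was tested against the group's range for 34 genes in 2 groups. The gap was above the 95% limit in 13 of 68 cases (19.1%), where chance gives about 1 in 20, and the genes are not independent. Of the 13, 10 came from Control week 19 library 5. This library was the lowest control at 50.4 FPKM for Slc27a1, 87.0 FPKM for Acsl1, 188 FPKM for Cpt1b, 104 FPKM for Cpt2, 114 FPKM for Acads, 299.8 FPKM for Hadha, 300.5 FPKM for Hadh and 19.6 FPKM for Acacb, and the highest at 3202 FPKM for Fabp4 and 2695 FPKM for Ech1. The other 3 were Ucp2 in Control week 19 library 2 (25.0 FPKM, high), Fabp4 in Recovery week 19 library 5 (2426 FPKM, high) and Pdk4 in Recovery week 19 library 4 (175 FPKM, high). Without control library 5, HF week 5 gave 22 of the 34 genes lower than control and 1 higher (Fabp4), with 14.4% of all genes lower and 14.2% higher.

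For some genes every library of 1 time point lay above all controls and every library of another below them. The differences from HF week 3 were not tested. Between Recovery week 7 (above) and HF week 3 (below), the mean log2(FPKM + 0.5) differed by 2.00 for Acsl1, 1.65 for Acads, 1.02 for Mlycd, 3.79 for Ucp3 and 2.03 for Dgat2. Between Recovery week 7 and HF week 5, a comparison fitted in limma above, it differed by 1.34 for Acsl1 and 1.28 for Acads. Between Recovery week 13 and HF week 3 it differed by 0.89 for Etfb.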

How the results depend on the processing

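Of the 20 genes lower in HF week 5 than in control, 12 passed under every alternative but the unadjusted p, which is a looser rule, and of the 19 higher in Recovery week 19 than in HF, 11 did. Leaving out single libraries gave 14 to 24 genes lower in HF and 0 to 1 higher, and 12 to 24 higher in recovery than in HF. The 14 and the 12 came without HF library 1, where 6.42% of all genes were lower in HF and 6.86% higher in recovery. Leaving out single libraries also gave 0 to 2 higher in HF week 3 and 0 to 1 higher in Recovery week 11, each against control. HF week 5 library 3 alone, chosen after seeing the data, gave 12 lower in HF, 12 higher in Recovery week 19 and 9 higher in Recovery week 7 than in HF, 2 higher in HF week 3 and 1 higher in Recovery week 11 than in control.

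Array weights called 24 genes lower and 2 higher (Fabp4 and Acot13) in HF week 5 against control, where they called 20.5% of all genes lower and 22.4% higher, 2 lower in Recovery week 19 and 2 lower in Recovery week 7 than in HF. Against control they gave 0 higher and 15 lower in HF week 3 (1.73% and 3.86% of all genes), 2 higher and 5 lower in Recovery week 11 (6.94% and 7.09%), and 2 higher and 4 lower in Recovery week 13 (14.2% and 15.1%). Fits of only the groups compared gave 0 higher in HF week 3, 2 higher in Recovery week 11 and 1 higher in Recovery week 13 against control, and 0 higher in Recovery week 7 against HF week 5, where these fits hold fewer libraries. The rise of Fabp4 in HF week 3 was lost, with 0 higher, also without a filter and with median centring. The unadjusted p gave 2 higher in HF week 3, 1 higher in Recovery week 19, 2 higher in Recovery week 7, 2 higher and 1 lower in Recovery week 11 and 1 lower in Recovery week 13 against control, and 1 lower in Recovery week 7 against HF. Where no cause is given, the cause was not tested.

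The Cpt1b to Cpt1a ratio of Recovery week 19 against control ran from -0.45 to -0.24 on the log2 scale when single libraries were left out, and passed only without recovery library 5. Groups were compared unpaired, since in the study each had its own mice, sacrificed at its time point. The columns carry no replicate letter. Small groups, and the use of a week 19 control for HF, limit these results: HF week 3 and Recovery weeks 7, 9 and 13 have 2 libraries, and depth is known only as a ratio.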
